A study of Homo sapiens with 11 samples.

Results

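The genes that make cholesterol and fatty acids were followed across 6 groups of CCRF-CEM cells, a human T lymphoblast line derived from acute leukemia, and sublines of it that grow in the proteasome inhibitor bortezomib (BTZ). The set held 30 genes chosen by name, of the 17372 genes tested: 18 sterol enzymes, 4 genes that regulate or transport sterols and 8 fatty acid genes. Of these, 29 had a named probe, 17, 4 and 8 in the 3 classes, and FDFT1 was not analysed here. Transcript levels came from Agilent whole genome microarrays on which each sample carried 1 dye. The methods describe equal amounts of samples with either dye on these arrays, so samples may have shared an array. The fit had no term for such sharing. CEM/BTZ7 (3 samples), CEM/BTZ100 and CEM/BTZ200 (1 sample each) were resistant sublines, named for the BTZ dose in nM they were selected to grow in, and had that dose for 24 h before RNA isolation. CEM/BTZ-200 (1 sample) was the CEM/BTZ200 subline kept without drug, for several weeks according to the methods. CEM/WT_BTZ (3 samples) was parental CEM/WT exposed to 7 nM BTZ for 24 h, and CEM/WT (2 samples) was left untreated. According to the methods the sublines spent a week without drug before that exposure, whereas the labels mention only culture in BTZ, and each dose was represented by a single subline. The labels do not say whether replicates came from separate cultures, so p-values reflect sample-to-sample spread that could be technical only.

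Cholesterol is built from acetyl-CoA through mevalonate and farnesyl pyrophosphate, which supplies both sterols and protein prenyl groups, and then through squalene and lanosterol. Fatty acids start from the same acetyl-CoA, are joined by fatty acid synthase and are then elongated and desaturated. Both branches are driven by the SREBP transcription factors, which are held in the endoplasmic reticulum by INSIG proteins while sterols are plentiful and cut free to enter the nucleus when sterols run low. Growing lymphoblasts use both branches to make membranes.

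The 5′ ends of the genes are shown first, because SREBPs act at promoters together with factors that bind the CCAAT box and the GC box. Promoters came from RefSeq (GRCh38.p14) for 26 of the 30 genes, each with 250 bases before and 50 bases after the start, and 5 motifs were searched on both strands. A sterol regulatory element in the form TCACNCCAC was present in SREBF2 and in no other of the 26, against 1.39% of all genes (1.13% of promoters). A longer form of this element, which contains the shorter one, was likewise found in SREBF2 and no other of the 26, against 0.0586% of all genes (0.0456% of promoters). The E-box CACGTG was found in INSIG1, LSS and SC5D, against 8.77% of all genes (7.26% of promoters). CCAAT was found in 20 of the 26 genes, against 39.7% of all genes and 34.6% of promoters (13 of 15 sterol enzymes, 3 of 4 regulators and 4 of 7 fatty acid genes). The GC box GGGCGG was found in 25 of the 26, against 48.3% of all genes (45% of promoters). Apart from the longer sterol element none of these motifs contains another, though neighbours can share letters at their ends, and a match is a run of letters, not a bound site.

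The 250 bases before the start of 5 genes are printed below 5′ to 3′ on the strand of the gene. SREBF2 (chr22:41832855-41833104, plus strand) is shown for its sterol element, with the longer form in capitals, beginning 134 bases before the start. INSIG1 (chr7:155297628-155297877, plus strand) had the largest difference between CEM/BTZ7 and CEM/WT_BTZ among the 29 measured genes, and its capitals mark a reversed CCAAT box and the E-box. LSS (chr21:46228775-46229024, minus strand) had the largest fall among sterol enzymes after BTZ, and its capitals mark a reversed CCAAT box and 6 GC boxes on either strand. FDPS (chr1:155308616-155308865, plus strand) and SCD (chr10:100346983-100347232, plus strand) stand for an early sterol step and a fatty acid step, with their 3 and 2 CCAAT boxes in capitals.
SREBF2: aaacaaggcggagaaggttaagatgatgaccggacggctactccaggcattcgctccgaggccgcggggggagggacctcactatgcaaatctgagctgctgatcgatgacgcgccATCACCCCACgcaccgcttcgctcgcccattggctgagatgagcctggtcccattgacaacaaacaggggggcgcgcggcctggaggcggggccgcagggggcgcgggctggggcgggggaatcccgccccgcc
INSIG1: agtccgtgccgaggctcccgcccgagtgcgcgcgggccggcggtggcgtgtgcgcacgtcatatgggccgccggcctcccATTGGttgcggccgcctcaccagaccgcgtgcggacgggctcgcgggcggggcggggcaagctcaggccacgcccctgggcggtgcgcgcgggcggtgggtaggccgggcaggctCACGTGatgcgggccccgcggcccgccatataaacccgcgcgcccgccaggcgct
LSS: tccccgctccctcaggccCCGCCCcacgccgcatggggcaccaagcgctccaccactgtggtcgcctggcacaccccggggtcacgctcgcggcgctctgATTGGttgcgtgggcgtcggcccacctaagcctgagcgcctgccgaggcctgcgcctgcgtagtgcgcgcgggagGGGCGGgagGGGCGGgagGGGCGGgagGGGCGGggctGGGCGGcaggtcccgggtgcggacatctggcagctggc
FDPS: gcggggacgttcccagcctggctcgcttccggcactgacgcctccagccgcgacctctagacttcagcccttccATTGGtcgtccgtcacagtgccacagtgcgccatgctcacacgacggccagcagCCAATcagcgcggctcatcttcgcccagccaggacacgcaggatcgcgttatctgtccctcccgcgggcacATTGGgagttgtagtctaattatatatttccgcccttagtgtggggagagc
SCD: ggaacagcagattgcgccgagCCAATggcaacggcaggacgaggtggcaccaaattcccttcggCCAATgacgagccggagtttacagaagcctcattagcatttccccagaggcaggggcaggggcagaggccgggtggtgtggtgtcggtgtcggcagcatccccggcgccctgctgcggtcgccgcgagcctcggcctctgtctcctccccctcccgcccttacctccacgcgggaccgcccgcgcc

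All 29 genes exceeded the 95th percentile of the negative control spots in each of the 11 samples, with a lowest value of 7.09 (normalized intensities are on the log2 scale here and below, so 1 unit is a doubling). The median intensity per sample was 67.96 in CEM/BTZ200, 67.3 in CEM/BTZ-200 and 124 to 188.5 in the other samples, before normalization. Of 12 T cell markers, 11 were above background in every sample, and CD28 in 9. The B cell marker MS4A1 was above background in 1 sample and CD22 in 10, with the other 3 of 5 above it in all 11, and of 5 myeloid markers 4 were above it in all 11 and LYZ in 6. The summed intensity of the T cell markers was 127000 to 154100 in CEM/BTZ7, 85040 in CEM/BTZ100, 108300 in CEM/BTZ200, 117100 in CEM/BTZ-200, 52560 to 68490 in CEM/WT_BTZ and 104200 to 146900 in CEM/WT. That of the B cell markers was 5300 to 8827 in CEM/BTZ7, 17330 to 36940 in CEM/WT_BTZ and 9806 to 13380 in CEM/WT, and that of the myeloid markers was 398.1 to 2531 in CEM/BTZ7, 493.9 to 594.5 in CEM/WT_BTZ and 1494 to 1824 in CEM/WT. The B cell sum rests largely on CD79A, at 12.23 to 15.16, since the other B cell markers reached at most 9.10. Of the 4 B cell markers tested, 3 differed upward and 1 downward in CEM/WT_BTZ over CEM/WT (−1.67 to 1.21), and 0 passed. Among myeloid markers CSF1R ranged from 4.54 to 11.10, and the others reached at most 7.90. The part of these shifts in the results below was not tested, and in bulk RNA fewer cells of a type and less RNA per cell cannot be told apart.

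The first comparison asked what 24 h in 7 nM BTZ did to these genes in the parental line. Of 17 sterol enzymes, 7 passed as lower in CEM/WT_BTZ relative to CEM/WT (LSS, TM7SF2, SQLE, DHCR7, FDPS, EBP and CYP51A1), most of all lanosterol synthase LSS, and 0 as higher. Over all 17372 genes 9.01% were called lower and 6.49% higher. At unadjusted p under 0.05, 11 sterol enzymes were lower and 1 higher, against 17.2% and 14.1% of all genes. The median log2 difference of the 17 was −0.93, against −0.02 over all genes. Passing means an adjusted p under 0.05 in limma, Benjamini-Hochberg over all genes, with 1 spread shared by the 6 groups.

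**Figure D1:**
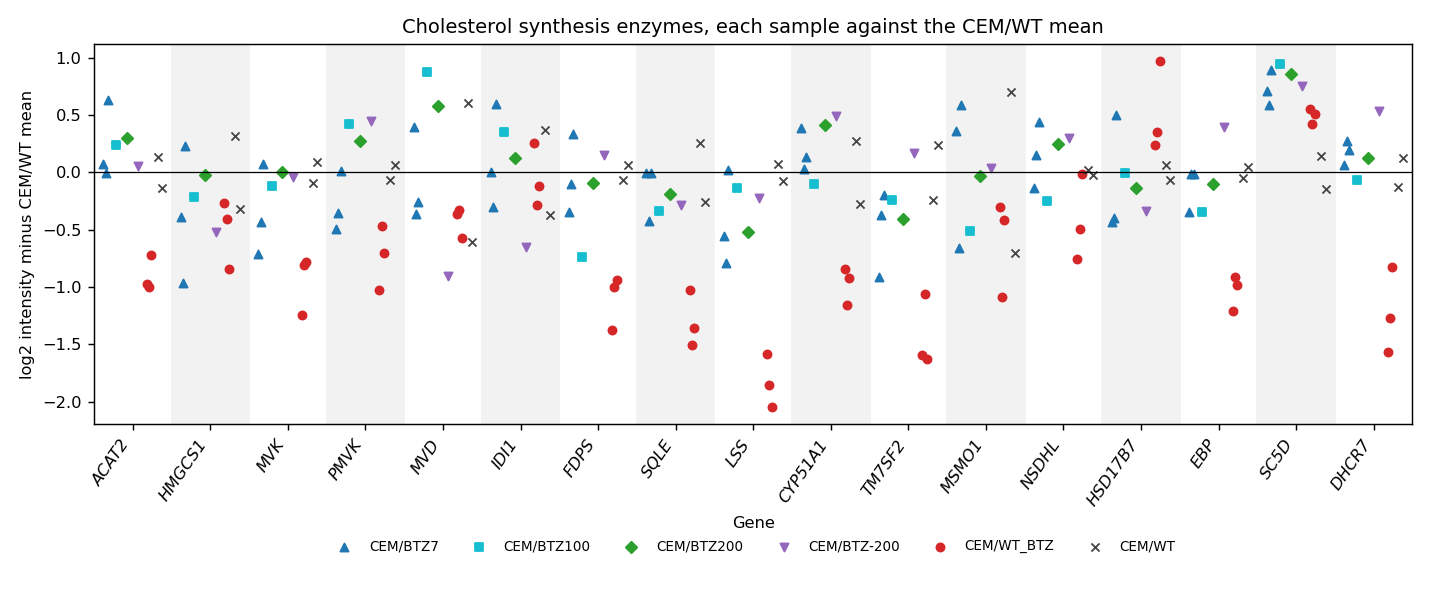
Each point is 1 sample, plotted as its log2 intensity minus the mean of the 2 CEM/WT samples (y axis) for the 17 measured sterol enzymes in pathway order (x axis), with groups told apart by colour and shape. The lowest point of the plot was a CEM/WT_BTZ sample of LSS, at 11.75 before subtraction, and all samples of SC5D outside CEM/WT lay above the CEM/WT mean.

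Lanosterol synthase, which closes squalene epoxide into the first sterol ring system, was at 12.21, 11.94 and 11.75 in the CEM/WT_BTZ samples and at 13.87 and 13.72 in the CEM/WT samples. Every treated sample lay more than 1 log2 unit below both untreated samples. The fitted difference was −1.90 ± 0.22 (SE), a ratio of 0.268, with an adjusted p of 0.00557. The other 3 probes of LSS gave −1.74 to −2.42.

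The steps on either side of LSS moved the same way. Squalene epoxidase SQLE, which makes its substrate, was at 11.38, 10.89 and 11.04 in CEM/WT_BTZ and at 12.66 and 12.14 in CEM/WT (log2 difference −1.34 ± 0.25, adjusted p = 0.0181). CYP51A1, the demethylase that acts on lanosterol, was at 10.63, 10.31 and 10.55 in CEM/WT_BTZ and at 11.75 and 11.20 in CEM/WT (−0.99 ± 0.25, adjusted p = 0.0434). The groups did not overlap in any of these 3 genes.

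Of the enzymes that finish the sterol, TM7SF2, a sterol reductase, differed by −1.45 ± 0.32 (adjusted p = 0.0297). DHCR7, the reductase that yields cholesterol in one branch of the pathway, differed by −1.17 ± 0.23 (adjusted p = 0.0215). EBP, a sterol isomerase, differed by −1.03 ± 0.21 (adjusted p = 0.0238). The remaining late enzymes did not pass: MSMO1, NSDHL, HSD17B7 and SC5D had differences of −0.69, −0.41, 0.50 and 0.47. HSD17B7 has a near-identical pseudogene copy, so its value may hold signal of both. SC5D, the desaturase that acts just before DHCR7, was at 9.87 to 10.00 in CEM/WT_BTZ and 9.30 to 9.59 in CEM/WT, with every treated sample above both untreated ones (adjusted p = 0.141, and 0.039 with the replicate number as a block). Its second probe gave 0.55 and its dimmest −0.79.

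From acetyl-CoA to farnesyl pyrophosphate 1 of 7 enzymes passed, against 6 of 10 from squalene onward, a difference that was not tested. The 1 was farnesyl pyrophosphate synthase FDPS (14.46, 14.83 and 14.90 in CEM/WT_BTZ, 15.77 and 15.90 in CEM/WT), whose difference was −1.12 ± 0.27 (adjusted p = 0.0403). ACAT2, which joins acetyl-CoA units, and the kinases MVK and PMVK had differences of −0.93, −0.96 and −0.75 with adjusted p of 0.0525, 0.0747 and 0.0969, all with CEM/WT_BTZ samples below both CEM/WT samples. HMGCS1, the synthase at the head of the mevalonate steps, was at −0.62, with overlap between the groups. The isomerase IDI1 was at −0.13. MVD, the mevalonate decarboxylase, was at −0.47, with CEM/WT samples as far apart as 18.02 and 16.81 and 0.03 at its second probe.

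Among the regulators the transcription factor gene SREBF1 and the retention gene INSIG1 fell, while SREBF2 and the sterol carrier STARD4 did not pass (2 of 4 lower, 0 higher). SREBF1 was at 13.52, 13.64 and 14.20 in CEM/WT_BTZ and at 15.83 and 15.61 in CEM/WT. This was a difference of −1.90 ± 0.24 (ratio 0.269, adjusted p = 0.00651), and a dimmer second probe gave −0.99. INSIG1, whose protein holds SREBPs in the endoplasmic reticulum, was at 10.86, 10.90 and 11.16 in CEM/WT_BTZ and at 12.22 and 12.23 in CEM/WT. Its difference was −1.24 ± 0.19 (ratio 0.423, adjusted p = 0.0107), with −1.26 at its second probe. SREBF2, alone among the 26 genes searched in holding the sterol element printed above, differed by −0.28 ± 0.27, with overlapping groups. STARD4 differed by 0.21 ± 0.23.

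All 8 fatty acid genes had every CEM/WT_BTZ sample below both CEM/WT samples. Of the 8, 5 passed as lower (ACACA, SCD, FADS2, ELOVL6 and FADS1), and 0 as higher (8 lower and 0 higher at unadjusted p under 0.05, the threshold met by 17.2% and 14.1% of all genes), and the median difference was −1.34. Over all genes, every CEM/WT_BTZ sample was lower than both CEM/WT samples in 25%. The same held for 10 of 17 sterol enzymes and 2 of 4 regulators. SC5D and HSD17B7 had every treated sample higher. The share of all genes with that pattern was not counted, so whether 2 of 17 sterol enzymes exceeds it is not known.

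**Figure D2:**
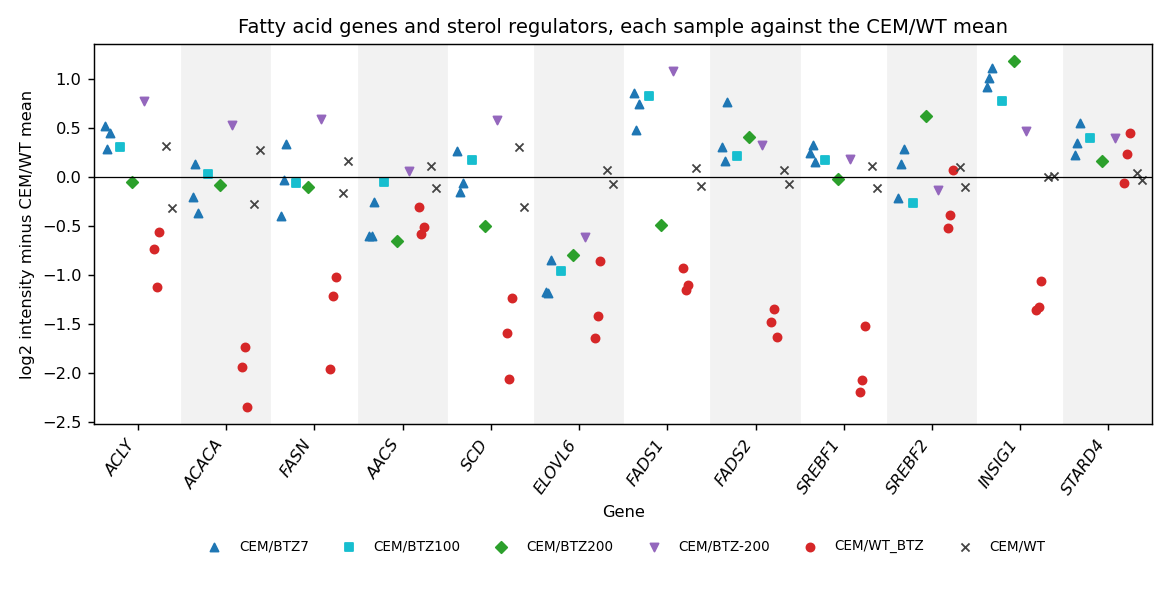
Each point is 1 sample, plotted as its log2 intensity minus the mean of the 2 CEM/WT samples (y axis) for the 8 fatty acid genes and then the 4 sterol regulators (x axis), with groups told apart by colour and shape. The CEM/WT_BTZ samples of all 8 fatty acid genes lay below both CEM/WT samples, and for ELOVL6 so did those of the resistant sublines.

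ACACA, the carboxylase that commits acetyl-CoA to fatty acids, was at 9.09, 9.29 and 8.68 in CEM/WT_BTZ and at 10.75 and 11.30 in CEM/WT. Its difference of −1.99 ± 0.30 (ratio 0.251, adjusted p = 0.0102) was the largest of the 29, but its dimmer probes gave −0.73 and −0.35. SCD, which puts the first double bond into saturated chains, was at 11.11, 10.64 and 11.47 in CEM/WT_BTZ and at 13.01 and 12.40 in CEM/WT. It differed by −1.62 ± 0.33 (adjusted p = 0.024), and its other probes by −0.99 and −0.47. For both genes the probes shared a direction and not a size.

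FADS1 and FADS2, the desaturases of polyunsaturated fatty acids, are neighbours on chromosome 11. FADS2 was at 12.84, 12.97 and 12.69 in CEM/WT_BTZ and at 14.39 and 14.25 in CEM/WT (−1.54 ± 0.19, adjusted p = 0.00651). FADS1 was at 12.52, 12.29 and 12.34 in CEM/WT_BTZ and at 13.54 and 13.35 in CEM/WT (−1.08 ± 0.20, adjusted p = 0.019). Both pairs of groups were separated by more than their own spread. The elongase ELOVL6 was at 7.21, 7.43 and 7.997 in CEM/WT_BTZ and at 8.93 and 8.78 in CEM/WT (−1.29 ± 0.28, adjusted p = 0.0298). Fatty acid synthase FASN, at 7.09, 7.83 and 8.02 in CEM/WT_BTZ and 8.88 and 9.21 in CEM/WT, differed by −1.38 ± 0.36 and missed the threshold (adjusted p = 0.0504). ACLY, which supplies cytosolic acetyl-CoA, and AACS, which activates acetoacetate, differed by −0.82 and −0.50 (adjusted p = 0.0989 and 0.127).

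These calls depended on the CEM/WT samples. With replicate number as a block, 12 sterol enzymes were lower and 1 higher (SC5D) and all 8 fatty acid genes were lower, beside 20.7% of all genes called lower and 16.9% higher in that fit. Without CEM/WT replicate 1 no gene of the set was called, and without CEM/WT replicate 2 only SREBF1, when 0.714% and 1.11% of all genes were called lower. None of the 14 calls held without each sample in turn, while the median differences stayed between −0.77 and −1.10 for sterol enzymes and between −1.01 and −1.61 for fatty acid genes under every alternative.

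**Figure D3:**
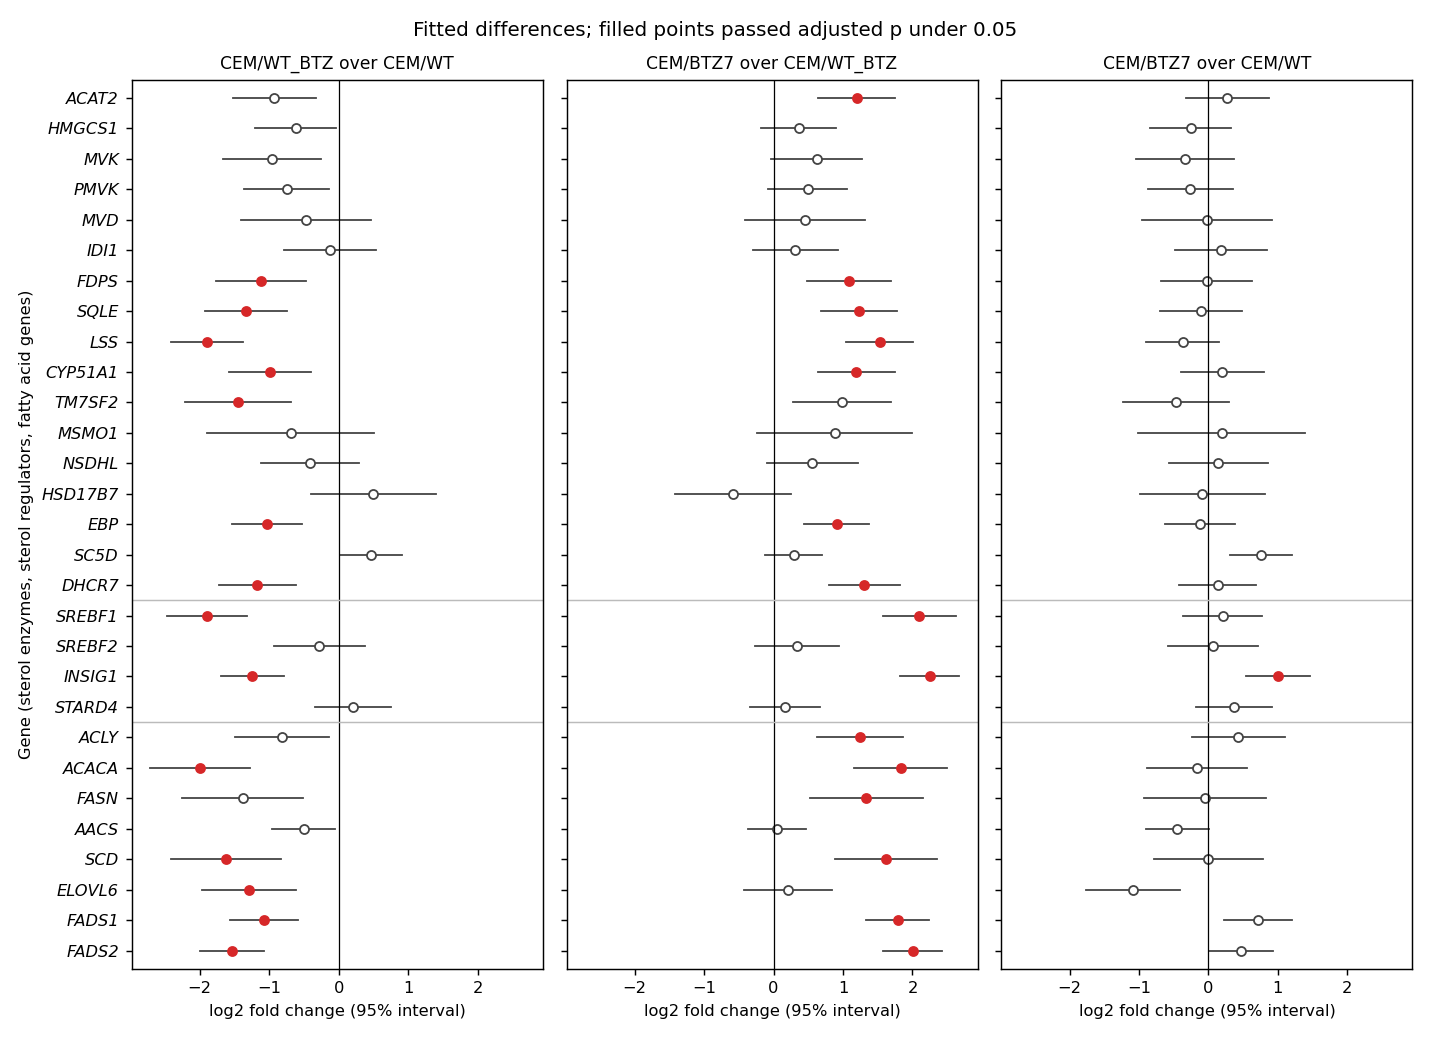
Fitted log2 differences with their 95% intervals (x axis) for the 29 genes (y axis, grouped as sterol enzymes, regulators and fatty acid genes) in 3 comparisons, with filled points for an adjusted p under 0.05. The filled points lay left of 0 for CEM/WT_BTZ over CEM/WT and right of 0 for CEM/BTZ7 over CEM/WT_BTZ, and 1, INSIG1, was filled for CEM/BTZ7 over CEM/WT.

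CEM/BTZ7 and CEM/WT_BTZ, both exposed to 7 nM BTZ for 24 h, were compared next. Both comparisons use the CEM/WT_BTZ samples, so a gene low in those samples by chance would look lower in the first and higher in this one. Of 17 sterol enzymes 7 passed as higher (ACAT2, FDPS, SQLE, LSS, CYP51A1, EBP and DHCR7) and 0 as lower, with a median of 0.88, and of 8 fatty acid genes 6 passed as higher (ACLY, ACACA, FASN, SCD, FADS1 and FADS2) and 0 as lower, with a median of 1.48. Over all genes 12.2% were called higher and 10.1% lower, and the median was 0.01. Every CEM/BTZ7 sample was above all CEM/WT_BTZ samples in 10 sterol enzymes, 2 regulators and 6 fatty acid genes, against 22.7% of all genes.

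INSIG1 showed the largest difference, at 13.14, 13.24 and 13.33 in CEM/BTZ7 and 10.86 to 11.16 in CEM/WT_BTZ (2.25 ± 0.18, ratio 4.74, adjusted p = 0.00124). SREBF1 was at 15.96, 16.05 and 15.88 in CEM/BTZ7 and at 13.52 to 14.20 in CEM/WT_BTZ (2.10 ± 0.22, ratio 4.29, adjusted p = 0.00254). In both genes the CEM/BTZ7 samples lay close together and far above those of CEM/WT_BTZ. SREBF2 (0.34 ± 0.25) and STARD4 (0.16 ± 0.21) again did not pass.

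Among fatty acid genes FADS2 was at 14.62, 14.48 and 15.09 in CEM/BTZ7 and at 12.69 to 12.97 in CEM/WT_BTZ (2.00 ± 0.18, ratio 4.01, adjusted p = 0.0017). FADS1 was at 14.30, 13.92 and 14.19 in CEM/BTZ7 and at 12.29 to 12.52 in CEM/WT_BTZ (1.79 ± 0.19, adjusted p = 0.00256). ACACA and SCD were higher by 1.83 ± 0.28 and 1.62 ± 0.30, with 0.94 at both other probes of ACACA and 1.17 and 0.64 at those of SCD. FASN and ACLY were higher by 1.34 ± 0.34 and 1.24 ± 0.26. ELOVL6 and AACS did not share this difference: ELOVL6 was at 7.68, 7.66 and 8.004 in CEM/BTZ7 and AACS at 10.70, 10.70 and 11.06, with overlap with CEM/WT_BTZ and differences of 0.21 ± 0.26 and 0.05 ± 0.17.

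Among sterol enzymes LSS was at 13.24, 13.01 and 13.81 in CEM/BTZ7 and 11.75 to 12.21 in CEM/WT_BTZ (1.53 ± 0.20, adjusted p = 0.00479). DHCR7 was at 14.22, 14.42 and 14.34 in CEM/BTZ7 and 12.58 to 13.32 in CEM/WT_BTZ (1.31 ± 0.21, adjusted p = 0.00909). SQLE, ACAT2, CYP51A1, FDPS and EBP were higher by 0.91 to 1.23. TM7SF2 had 0.99 ± 0.29 and missed the threshold (adjusted p = 0.0579). HSD17B7 was the 1 sterol enzyme of 17 with a negative difference, −0.59 ± 0.35.

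With replicate number as a block, 12 sterol enzymes were higher and 1 lower (HSD17B7), beside 23.1% of all genes called higher and 20.9% lower. Leaving out CEM/BTZ7 replicate 3 left 1 sterol enzyme (LSS), 2 regulators and 3 fatty acid genes called, with 4.59% of all genes called higher, and 6 of the 15 calls (ACACA, FADS1, FADS2, INSIG1, LSS and SREBF1) held without each sample in turn.

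The drug-exposed CEM/BTZ7 cells were also compared with untreated CEM/WT, and the genes differed in both directions, by −1.08 (ELOVL6) to 1.00 (INSIG1). The medians were −0.02 for sterol enzymes, 0.29 for regulators and −0.02 for fatty acid genes, against −0.04 over all genes. INSIG1 passed as higher (1.00 ± 0.19, ratio 2.01, adjusted p = 0.0453), and no other gene of the 29 passed in either direction, when 1.9% of all genes were called higher and 1.54% lower. At unadjusted p under 0.05 the sterol enzymes gave 1 higher and 0 lower and the fatty acid genes 2 higher and 1 lower, against 7.94% higher and 6.96% lower of all genes. The INSIG1 call was lost in 7 of the 8 fits that leave out a sample, with 0.389 as the highest adjusted p, and under 75th percentile scaling, with the mean of its probes and with only the groups compared. Its second probe gave 0.95.

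SC5D, FADS1 and ELOVL6 also stood away from the CEM/WT level, without passing (FADS1 at 0.71 ± 0.20, adjusted p = 0.151). SC5D was at 10.16, 10.04 and 10.34 in CEM/BTZ7 and at 9.59 and 9.30 in CEM/WT, a difference of 0.76 ± 0.18 (adjusted p = 0.0954, and 0.0386 with the replicate block). Its second probe gave 1.02 and its dimmest 0.40. ELOVL6 was at 7.68, 7.66 and 8.004 in CEM/BTZ7 and at 8.93 and 8.78 in CEM/WT, a difference of −1.08 ± 0.28 (adjusted p = 0.119, and 0.0341 with the block). Every CEM/BTZ7 sample was above both CEM/WT samples in 6 of the 29 genes (SC5D, FADS1, FADS2, INSIG1, SREBF1 and STARD4) and below both in 2 (ELOVL6 and AACS), against 17% and 16.4% of all genes. For SCD, ACACA and FASN the difference was 0.00, −0.16 and −0.05, with 95% intervals of −0.79 to 0.79, −0.88 to 0.55 and −0.92 to 0.83. The dimmer probes of ACACA gave 0.21 and 0.59, on the other side of 0, and those of SCD 0.18 and 0.17.

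**Figure D4:**
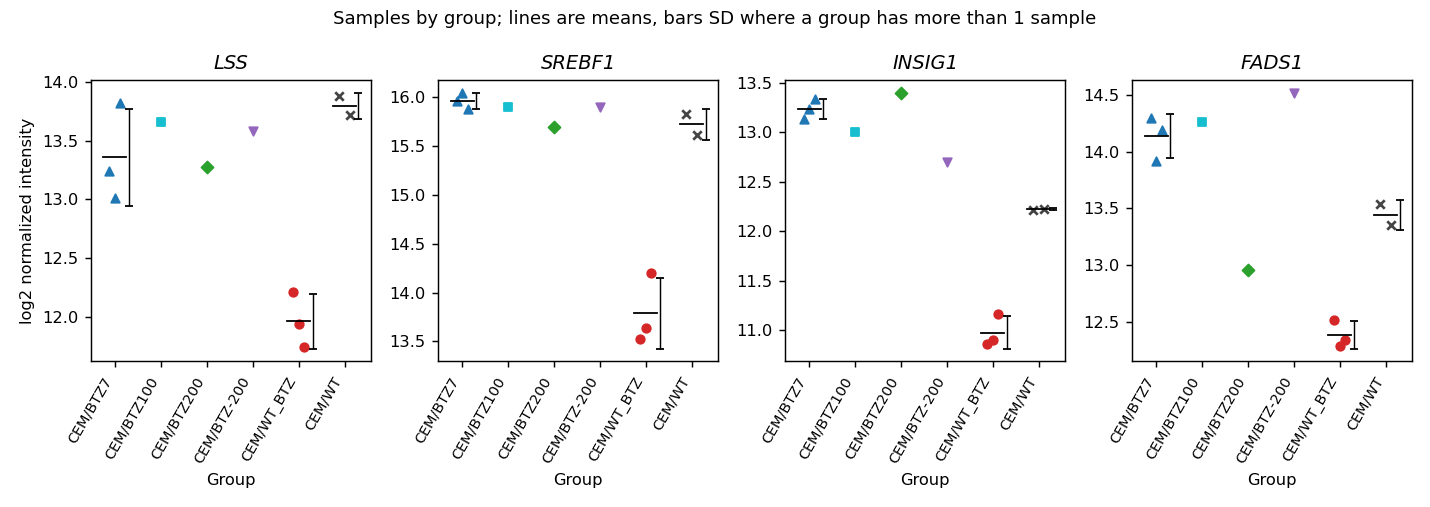
Log2 normalized intensity (y axis, a separate scale for each panel) of LSS, SREBF1, INSIG1 and FADS1 in the samples of each group (x axis), with lines for means and bars for the SD where a group has more than 1 sample. CEM/WT_BTZ was the lowest group in every panel, and for FADS1 the CEM/BTZ200 sample at 12.95 lay next above it.

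The higher dose sublines were each a single sample, so their tests assume that this sample varies like those of the replicated groups. Their labels give no replicate number, so the replicate block left their own values unadjusted. It altered only the CEM/WT level, the dye term and the spread they were tested against. No gene of the 29 passed against CEM/WT in CEM/BTZ100 (1.05% of all genes higher, 1.54% lower), in CEM/BTZ200 (1.23% and 1.77%) or in CEM/BTZ-200 (1.31% and 1.76%). At unadjusted p under 0.05 each gave 1 higher sterol enzyme, SC5D, and 0 lower ones, against 7.47% higher and 7.21% lower of all genes in CEM/BTZ100, 6.22% and 8.24% in CEM/BTZ200 and 7.71% and 11.1% in CEM/BTZ-200. Of 8 fatty acid genes 1 was higher in CEM/BTZ100, 1 lower in CEM/BTZ200 and 1 higher in CEM/BTZ-200 at that threshold. Of 4 regulators 1 was higher in CEM/BTZ100, 1 in CEM/BTZ200 and 0 in CEM/BTZ-200, and 0 were lower. The medians in CEM/BTZ100, CEM/BTZ200 and CEM/BTZ-200 were −0.16, −0.10 and 0.19 for sterol enzymes and 0.07, −0.27 and 0.51 for fatty acid genes, each gene at its brightest probe. In CEM/BTZ200 that probe gave −0.04 for ACACA and −0.46 for SCD. Dimmer probes lay on the other side of 0, at 1.05 and 0.84 for ACACA and 0.33 and 0.41 for SCD. FADS1 and FADS2 kept their signs between probes in CEM/BTZ200.

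INSIG1 was at 13.00 in CEM/BTZ100, 13.40 in CEM/BTZ200 and 12.70 in CEM/BTZ-200, all above both CEM/WT samples (12.22 and 12.23). The differences were 0.80, 1.21 and 0.45, with adjusted p of 0.224, 0.0741 and 0.446, and that of CEM/BTZ200 became 0.0356 with the replicate block, when 3.21% of all genes were called higher. INSIG1 was also called in CEM/BTZ200 under 75th percentile scaling, with the deposited log2 values, without the dye term and with a trended prior. The second probe of INSIG1 gave 1.02, 0.96 and 1.12, so the lower value in CEM/BTZ-200 was seen with 1 of its 2 probes. SC5D was at 10.40 in CEM/BTZ100, 10.30 in CEM/BTZ200 and 10.20 in CEM/BTZ-200, with differences of 0.87, 0.78 and 0.84, and CEM/BTZ-200 passed with the block (adjusted p = 0.0426), when 5.91% of all genes were called higher. The second probe of SC5D gave 0.97, 0.94 and 0.82, but its dimmest gave −0.15, −0.49 and 0.15, so the rise was not seen with every probe. SREBF1 was at 15.89 in CEM/BTZ100, 15.69 in CEM/BTZ200 and 15.90 in CEM/BTZ-200, with differences of at most 0.28 from CEM/WT at this probe. A dimmer probe of SREBF1 gave 0.21, 0.72 and 0.38, so the size in CEM/BTZ200 and CEM/BTZ-200 depended on the probe. ELOVL6 was at 7.89 in CEM/BTZ100, 8.05 in CEM/BTZ200 and 8.24 in CEM/BTZ-200, below both CEM/WT samples in each subline, without passing.

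CEM/BTZ200 with its drug was set against CEM/BTZ-200, the same subline without it. Because CEM/BTZ-200 had been off drug for several weeks, recent exposure and long withdrawal cannot be told apart here. No gene of the 29 passed, when 0.023% of all genes were called higher and 0.294% lower. The CEM/BTZ200 sample carried Cy3 and the CEM/BTZ-200 sample Cy5, so each fitted difference rests on the dye term, without which it moved by up to 0.69 and changed sign in 6 of the 29 genes (FADS2, HMGCS1, MVK, SC5D, SQLE and SREBF1), none of them called. The fitted differences of the 8 fatty acid genes were all negative, with a median of −0.74 (−0.04 over all genes), and the measured value was lower in CEM/BTZ200 for all of them but FADS2. At unadjusted p under 0.05, 2 of 8 were lower, FADS1 and AACS, and 0 higher, against 4.81% and 5.93% of all genes. FADS1 was at 12.95 in CEM/BTZ200 and 14.52 in CEM/BTZ-200 (−1.67 ± 0.35, ratio 0.314, adjusted p = 0.158), and its second probe gave −1.05. FADS2, its neighbour, was at 14.73 in CEM/BTZ200 and 14.65 in CEM/BTZ-200 (fitted difference −0.23 ± 0.33, and 0.08 without the dye term). Sterol enzymes had a median of −0.15, with LSS at −0.71 ± 0.38 (−0.30 without the dye term) and MVD at 1.18 ± 0.67, where the second probe of MVD gave −0.44.

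The difference between CEM/BTZ200 and CEM/BTZ-200, less that between CEM/WT_BTZ and CEM/WT, was tested as well. The doses differed (200 and 7 nM), and CEM/BTZ-200 had been withdrawn from drug whereas CEM/WT was untreated. No gene of the 29 passed, when 0% of all genes were called higher and 0.0748% lower. At unadjusted p under 0.05, 6 were higher and 0 lower, against 7.35% and 5.31% of all genes. The largest differences were those of INSIG1 (2.00 ± 0.37, adjusted p = 0.129) and SREBF1 (1.90 ± 0.46, adjusted p = 0.2), with 1.09 and 1.34 at their second probes. FADS1 was on the other side of 0, at −0.59 ± 0.39, with −0.05 at its second probe. The medians were 0.74 for sterol enzymes and 0.70 for fatty acid genes, against 0.02 over all genes.

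Other lipid genes were taken from 6 further lists. Over all genes, 9.01% were called lower and 6.49% higher in CEM/WT_BTZ over CEM/WT. In CEM/BTZ7 over CEM/WT_BTZ 12.2% were called higher and 10.1% lower. SREBP processing genes, which move and cut the precursors, gave few calls: of 9 tested, 1 was higher and 0 lower in CEM/WT_BTZ relative to CEM/WT, INSIG2, the second retention gene (1.06 ± 0.23, adjusted p = 0.0284). In CEM/BTZ7 against CEM/WT_BTZ 1 was higher of 9, the protease gene MBTPS2 (1.39 ± 0.27, adjusted p = 0.0161). Of 13 other sterol and SREBP targets, 3 were lower and 2 higher after BTZ, and 4 were higher and 3 lower in CEM/BTZ7 over CEM/WT_BTZ. PCYT2, which makes phosphatidylethanolamine precursors, was at −1.64 and 1.68 in these comparisons and the citrate carrier SLC25A1 at −1.45 in the first, whereas the phosphatidate phosphatase LPIN1 was at 1.77 and −2.73.

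Of 16 genes of cholesterol storage, trafficking and LXR targets, 3 were lower and 1 higher in CEM/WT_BTZ relative to CEM/WT, and 3 were higher and 4 lower in CEM/BTZ7 against CEM/WT_BTZ. In these 2 comparisons the sterol exporter ABCG1 differed by −1.91 and 2.28 and the lipoprotein receptor SCARB1 by −1.43 and 1.40. MYLIP, a ubiquitin ligase that removes lipoprotein receptors, moved the other way, by 2.23 and −1.56. The isoprenoid branch, which shares farnesyl pyrophosphate with sterols, gave 1 lower and 1 higher of 15 after BTZ (PDSS1 at −1.04, RABGGTB at 0.74). Each was 6.67% of the list, beside 9.01% lower and 6.49% higher of all genes. In CEM/BTZ7 over CEM/WT_BTZ 3 of the 15 were higher (20%) and 2 lower (13.3%), beside 12.2% and 10.1% of all genes.

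Of 19 genes of fatty acid elongation, desaturation and activation, 1 was lower and 1 higher after BTZ (the fatty acid carrier FABP5 at −1.43 and HSD17B12 at 0.86). Each was 5.26% of the list, beside 9.01% lower and 6.49% higher of all genes. In CEM/BTZ7 over CEM/WT_BTZ 2 of the 19 were higher and 2 lower (10.5% each), beside 12.2% and 10.1% of all genes. The elongase of very long chains ELOVL4 was higher in CEM/BTZ7, by 2.17 ± 0.20 over CEM/WT_BTZ and by 1.49 ± 0.21 over CEM/WT, and in CEM/BTZ200, by 2.30 ± 0.29 over CEM/WT (adjusted p = 0.00176, 0.0169 and 0.0131). Of 21 fatty acid oxidation genes, 2 were lower and 1 higher after BTZ (9.52% and 4.76%), near the shares of all genes. In CEM/BTZ7 against CEM/WT_BTZ 5 were higher (23.8%, against 12.2% of all genes) and 0 lower. ECI1, an isomerase that prepares unsaturated chains for oxidation, was higher than in CEM/WT in all 4 resistant groups, by 2.46 in CEM/BTZ7, 2.26 in CEM/BTZ100, 2.29 in CEM/BTZ200 and 2.49 in CEM/BTZ-200 (adjusted p 0.00838 to 0.0447), and by 0.22 in CEM/WT_BTZ (adjusted p = 0.663).

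**Figure D5:**
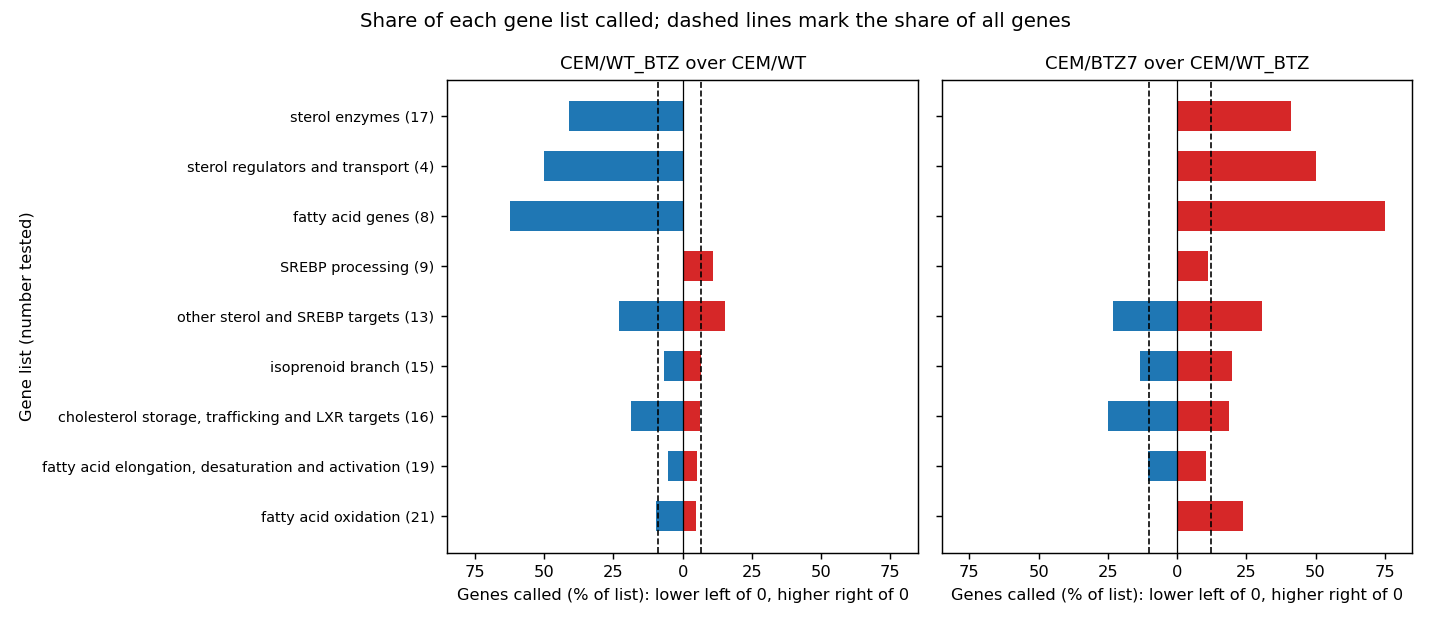
Share of each gene list called in CEM/WT_BTZ over CEM/WT (left) and CEM/BTZ7 over CEM/WT_BTZ (right), with the percent of the list on the x axis (lower to the left of 0, higher to the right), the lists and the number of genes tested on the y axis, and dashed lines at the share of all genes. The sterol enzymes (41.2%), regulators (50%) and fatty acid genes (62.5% lower and 75% higher) were called in 1 direction only in each comparison.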

How the data were processed

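RNA of 11 samples in 6 groups was measured. The deposited intensities are spot signals that the authors quantified with Agilent Feature Extraction, without normalization between arrays. The deposited log2 values, used as an alternative, were made by the authors with limma by background correction, loess and quantile normalization. Versions are not given in the sources used here. For CEM/BTZ7 the columns 1, 2 and 3 of the intensities matched columns 2, 3 and 1 of the log2 values best, and which order is right is not known. Dyes and replicate numbers were assigned in the order of the intensities. The dye adjustment, the block calls and the CEM/BTZ7 replicates named as left out depend on that order.

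The 45015 spots were quantile-normalized and put on the log2 scale, spots of a probe were averaged, and probes above the 95th percentile of 153 negative control spots in at least 2 samples were kept (37422 of 41000). A gene was represented by its brightest kept probe. All 49 probes of the genes described were kept. Differences came from limma 3.58.1 in R 4.3.3 with 6 groups and dye (4 residual and 2.40 prior degrees of freedom), adjusted by Benjamini-Hochberg over 17372 genes, so they are adjusted for dye and deviate from differences of group means, by up to 0.115 in CEM/WT_BTZ or CEM/BTZ7 over CEM/WT and up to 0.69 between CEM/BTZ200 and CEM/BTZ-200, which carried different dyes. The number of arrays limits the precision. The fit was tested on simulated data. All 30 genes are named, and from other lists at most 4 genes per list and comparison, those called with the largest difference. Members and lists were chosen with earlier results of these data known.

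Same-numbered samples deviated together (correlations of 0.295 to 0.534 in 7 pairs, −0.465 to 0.0718 in the 14 others), so the number was also fitted as a block. Deviations were taken from group means and sum to 0 within a group, so the 7 and the 14 pairs are not independent. The 2 CEM/WT samples mirror each other, at 0.387 and −0.387 with CEM/WT_BTZ replicate 1. The labels do not say what it stands for. Alternatives were 75th percentile scaling, the deposited log2 values, no dye term, other filters, the mean of probes, a trended prior, only the groups compared, and leaving out each replicate.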

Additional observations from a re-analysis of the deposited data

How the results depend on the processing

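Alternatives were run for the 29 measured sterol and fatty acid genes and their 3 classes, not for the other lipid genes, and no difference of the 29 that passed the test changed sign under them. With replicate number as a block, which ended none of the calls, 13 sterol enzymes and 8 fatty acid genes were called in CEM/WT_BTZ over CEM/WT, 13 sterol enzymes in CEM/BTZ7 over CEM/WT_BTZ, 1 sterol enzyme (SC5D, higher) and 1 fatty acid gene (ELOVL6, lower) in CEM/BTZ7 over CEM/WT, 1 sterol enzyme (FDPS, lower) in CEM/BTZ100 over CEM/WT, and 1 sterol enzyme (SC5D, higher) and 1 fatty acid gene (FADS1, higher) in CEM/BTZ-200 over CEM/WT. With the block, 4.08% of all genes were called higher and 4.09% lower in CEM/BTZ7 over CEM/WT, 2.87% and 3.54% in CEM/BTZ100 over CEM/WT, and 5.91% and 9.05% in CEM/BTZ-200 over CEM/WT. With only the groups compared, which leaves fewer samples for the spread, 1 sterol enzyme and 1 fatty acid gene were called in CEM/WT_BTZ over CEM/WT. The deposited log2 values gave 1 fatty acid gene (ELOVL6, lower) in CEM/BTZ7 over CEM/WT, and these values, 75th percentile scaling and the trended prior each gave 1 fatty acid gene (FADS1, higher) in CEM/BTZ-200 over CEM/WT. The one regulator called in CEM/BTZ7 over CEM/WT, INSIG1, was not called under 75th percentile scaling, the mean of probes or only the groups compared, and 1 regulator (INSIG1, higher) was called in CEM/BTZ200 over CEM/WT under 75th percentile scaling, the deposited log2 values, no dye term, the block and the trended prior. The cause was not tested.

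Leaving out 1 replicate at a time gave 0 to 7 sterol enzymes and 0 to 6 fatty acid genes in CEM/WT_BTZ over CEM/WT, with 0 of either class without CEM/WT replicate 1 or 2, 2 and 2 without CEM/WT_BTZ replicate 1, 4 and 2 without CEM/WT_BTZ replicate 2, and 2 and 3 without CEM/BTZ7 replicate 2. It gave 1 to 7 sterol enzymes and 3 to 6 fatty acid genes in CEM/BTZ7 over CEM/WT_BTZ, the lowest without CEM/BTZ7 replicate 3. It gave 0 to 1 fatty acid genes in CEM/BTZ7 over CEM/WT (ELOVL6, without CEM/WT_BTZ replicate 3), and in every other comparison 0 of either class. A lone sample left in a group was assumed to vary like the other groups. The 75th percentile scaling put the median of all genes at −0.11 in CEM/BTZ7 over CEM/WT and −0.10 in CEM/BTZ100 over CEM/WT. All 29 measured genes were above background in all 11 samples, but probes of a gene differed in the size of a difference, and whether spots were saturated was not tested. With 1 sample each, CEM/BTZ100, CEM/BTZ200 and CEM/BTZ-200 have no spread of their own and no replicate number. Their calls with the block therefore rest on values that the block did not adjust.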

Other observations

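SC5D, on chromosome 11, was also set beside the genes around it, 10 tested genes on each side. The median difference of these 20 neighbours was 0.19 in CEM/BTZ7 over CEM/WT, 0.07 in CEM/BTZ100 over CEM/WT, 0.04 in CEM/BTZ200 over CEM/WT and −0.47 in CEM/BTZ-200 over CEM/WT, beside 0.76, 0.87, 0.78 and 0.84 for SC5D itself. Those SC5D values are of its brightest probe, and its dimmest gave 0.40, −0.15, −0.49 and 0.15. These are descriptions with no test.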
